A study of Homo sapiens with 4 samples.

Results

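The genes described are the zinc finger genes of chromosome 19 whose names consist of ZNF, a number and at most 1 further letter and whose row lay on chr19 in the deposited tables. The rule found 253 genes, out of 26485 gene names in each table, and another 276 ZNF genes of the same form lay on other chromosomes. Their levels were measured by mRNA sequencing in 2 established lines from anaplastic thyroid cancer, an undifferentiated thyroid carcinoma. The SW1736 wt and 8505C wt libraries came from untreated parental cells. The SW1736-PTX and 8505C-PTX libraries came from cells derived from them under paclitaxel, a taxane that stabilizes microtubules, given for 6 months at doses rising from 1 nM to 1.5 µM. The PTX cells were then cultured with 1.5 µM paclitaxel, so the presence of the drug and the selected state cannot be told apart. Each condition had 1 library, 4 in all, so a difference within a line has no replicate check, no test was made, and each PTX line is 1 selected culture.

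Most of these genes encode proteins with an array of C2H2 zinc fingers, each of which reads a few bases of DNA, and many begin with a KRAB domain. The KRAB domain recruits TRIM28, a scaffold for the histone methyltransferase SETDB1 and for HP1 proteins, and this complex places repressive H3K9 methylation, above all on retroelements. The family grew by tandem duplication, which left the genes in clusters along the chromosome, with each gene often most like its neighbours. In the GENCODE 44 annotation of hg38, 243 of the 253 names were protein coding and the other 10 carried a pseudogene biotype. A match to the KRAB A box was found in 187 of the 243 coding sequences (77.0%), and the median number of C2H2 finger matches was 12, from 1 in ZNF414 to 36 in ZNF208.

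Starts less than 500 kb from the next one were joined, and groups of at least 3 genes were called clusters and lettered A to K along the chromosome. The 11 clusters held 242 genes and the other 11 genes were scattered. The largest were cluster I with 43 genes (chr19:51571278-53580269), cluster K with 43 genes (chr19:57191500-58489533) and cluster D with 36 genes (chr19:19668153-24129967), which lies on the short arm next to the centromere. Clusters C, F and H held 27, 26 and 23 genes, and clusters A, B, E, G and J held between 3 and 17.

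The library labelled SW1736-PTX was more like the 8505C libraries than like SW1736 wt. PAX8, a thyroid transcription factor, had 38.2 FPKM in SW1736 wt and between 0.123 and 0.206 in the other 3 libraries, where FPKM is a level per gene length and library depth. FOXE1 had 26.6 FPKM in SW1736 wt and between 0.0443 and 0.511 in the others, and NKX2-1 was listed at 0 in SW1736 wt and had 36.3, 30.5 and 39.0 FPKM in SW1736-PTX, 8505C wt and 8505C-PTX. Of the other thyroid follicular markers reported here, TSHR and SLC5A5 were listed at 0 in all 4 libraries and TG was at most 0.00586 FPKM. The epithelial keratins KRT8 and KRT18 were at least 257 FPKM in every library, EPCAM and CDH1 were at most 0.0806, and of the endothelial and leukocyte markers CDH5 reached 55.9 FPKM in 8505C wt and CD14 4.50 in 8505C-PTX. Over the 14692 gene names that passed 0.5 FPKM in any library, the correlation of SW1736-PTX on the scale of log2(FPKM + 0.1) was 0.767 with SW1736 wt and 0.873 with 8505C wt. Over the 226 zinc finger genes that passed the same limit the values were 0.656 and 0.803, and over all 253, including those off everywhere, 0.803 and 0.886. Gene by gene, SW1736-PTX was nearer to 8505C wt than to SW1736 wt for 53.1% of the 226 (all genes 56.0%). These points share library depth and annotation, so the correlations are descriptions. The counts and medians of the SW1736 comparison over all the zinc finger genes and over clusters D and I are therefore also given with 8505C wt as the reference of SW1736-PTX, and the part of line identity in them was not tested. The depth was 48.9 M reads in SW1736 wt, 57.9 M in SW1736-PTX, 43.5 M in 8505C wt and 53.6 M in 8505C-PTX, computed from the ratio of coverage to FPKM.

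The zinc finger genes were widely expressed at low levels. A gene was counted as on above 0.5 FPKM, the limit that the study applied, which corresponds to between 84.6 and 113 reads on the median transcript of these genes (3886 bp). On this rule 199 of 253 were on in SW1736 wt (78.7%), 205 in SW1736-PTX (81.0%), 190 in 8505C wt (75.1%) and 212 in 8505C-PTX (83.8%). Over all gene names the shares were 47.5%, 50.7%, 46.8% and 50.7% in the same order. The ZNF genes on other chromosomes had shares between 76.1% and 80.4%. The median level of the 253 genes was 1.92, 1.74, 1.40 and 1.69 FPKM in the same order. Among genes that were on, the median was 2.56 FPKM in SW1736 wt against 9.81 for all genes, and the lower level held in each of the 4 libraries. Only 16 of the 253 passed 10 FPKM in any library.

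**Figure D1:**
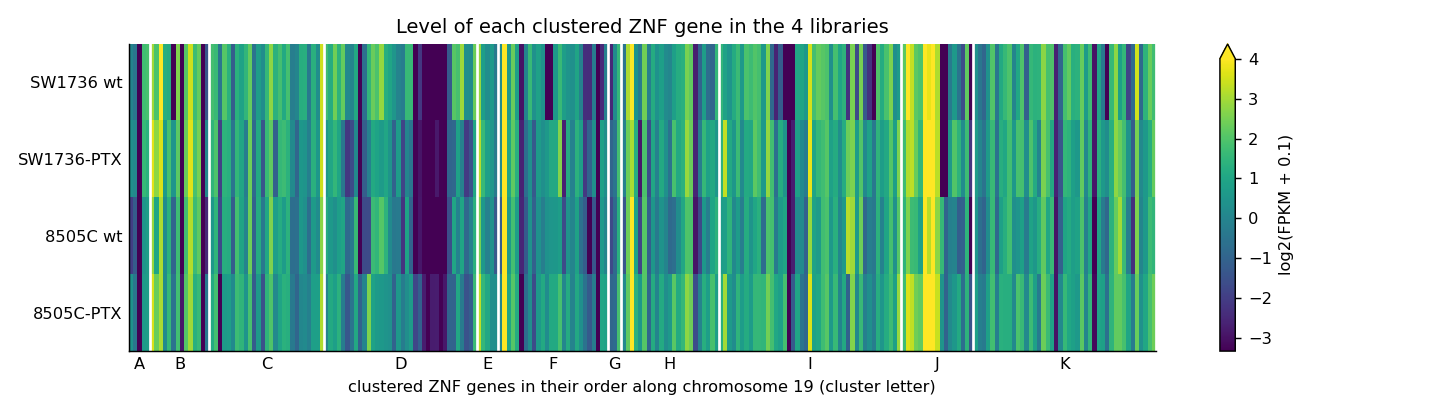
Level of each of the 242 clustered ZNF genes, as log2(FPKM + 0.1), in the 4 libraries (rows) and in chromosomal order (columns), with white lines between clusters A to K. The dark block in cluster D holds 9 neighbouring genes that were off in all 4 libraries, and the bright columns in cluster J include ZNF580, ZNF581 and ZNF787.

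The 5 genes of the highest mean level had no KRAB match. ZNF146, which consists almost only of zinc fingers, had 26.6, 25.4, 30.8 and 22.2 FPKM in SW1736 wt, SW1736-PTX, 8505C wt and 8505C-PTX, the order used for every list of 4 values. ZNF358 had 20.2, 33.7, 8.70 and 41.8 FPKM, and ZNF581 had 13.5, 24.2, 9.15 and 37.0 FPKM. Both were higher in each PTX library than in its wt library. ZNF580, the neighbour of ZNF581 in cluster J, had 27.6, 18.2, 18.7 and 30.8 FPKM, and ZNF787 had 27.8, 20.2, 22.2 and 21.0 FPKM. Cluster J had the lowest share of KRAB matches among the clusters (37.5% of 16 coding genes) and the highest median level in SW1736 wt (4.38 FPKM).

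On and off states were shared by most genes. In all 4 libraries 167 genes were on and 27 off. Of the 27, 10 lay in cluster D. There, 9 genes in a row from ZNF208 to ZNF730 (chr19:21966095-23147212), namely ZNF208, ZNF257, ZNF676, ZNF729, ZNF98, ZNF492, ZNF99, ZNF728 and ZNF730, did not pass 0.416 FPKM in any library. This block of 1181 kb lay between genes that were on in some or all libraries. ZNF43 before it was off in 8505C wt only. After it, ZNF724P was off in both PTX libraries and ZNF91 was on in all 4. Outside cluster D, the genes that were off in all 4 libraries included ZNF536, known from the nervous system, ZNF541, known from the testis, and ZNF382, ZNF582 and ZNF154, which are known as genes whose promoters are methylated in carcinomas. ZNF154 was between 0.0287 and 0.0644 FPKM and ZNF382 at most 0.0724 FPKM. ZNF582 was listed at 0 in both SW1736 libraries and had 0.411 and 0.401 FPKM in the 8505C libraries.

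**Figure D2:**
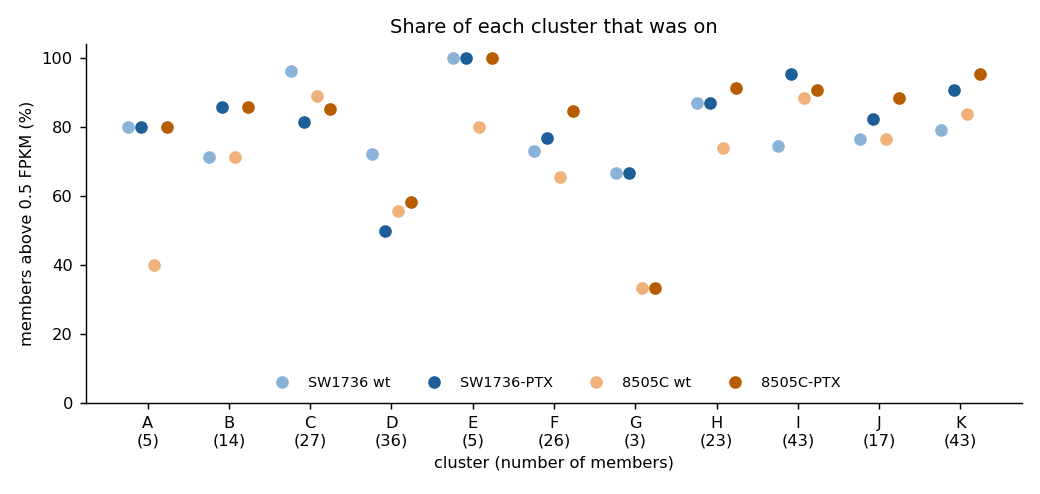
Share of the members of each cluster above 0.5 FPKM (vertical axis, percent) in the 4 libraries (colours), with the number of members under each letter. Cluster D had the lowest share among the clusters of more than 5 genes in SW1736-PTX (50%), 8505C wt (55.6%) and 8505C-PTX (58.3%).

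The largest group of genes with unequal states was off in a single library, SW1736 wt. These 14 genes were ZNF829, ZNF568, ZNF607, ZNF229, ZNF480, ZNF610, ZNF880, ZNF528, ZNF415, ZNF818P, ZNF677, ZNF549, ZNF497 and ZNF132. Their median level was 0.144 FPKM in SW1736 wt and 1.49, 1.28 and 1.76 FPKM in the other 3 libraries. A further 13 genes were off in 8505C wt only, 8 were off in both wt and on in both PTX libraries, 6 were on in SW1736 wt only and 5 were on in both wt and off in both PTX libraries. The remaining 13 genes had other patterns. Many of these states lie near the limit, since between 41 and 61 genes per library had between 0.25 and 1 FPKM. The patterns over the 4 libraries were not counted for all gene names. Between the pairs of libraries, 40 of the 253 genes differed in state between SW1736 wt and SW1736-PTX, 41 between the wt libraries, 34 between the 8505C libraries, 31 between SW1736-PTX and 8505C wt and 13 between the PTX libraries. Of all 26485 gene names, 2395, 1942, 1775, 1825 and 1122 differed in state in the same order of pairs.

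In SW1736-PTX 23 genes were switched on and 17 switched off relative to SW1736 wt, which is 9.09% and 6.72% of the 253 against 6.13% and 2.91% of all gene names. In 8505C-PTX 28 were switched on and 6 off relative to 8505C wt, 11.1% and 2.37% against 5.29% and 1.41%. With 8505C wt as the reference of SW1736-PTX, 23 were switched on and 8 off (all gene names 5.4% and 1.49%). With a wider limit, chosen after the values were seen, of below 0.25 FPKM in one library and above 1 FPKM in the other, 11 genes were switched on in SW1736-PTX and 2 off (ZNF681 and ZNF585B), while 3 were switched on in 8505C-PTX (ZNF554, ZNF626 and ZNF404) and 0 off.

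The 8 genes that were off in both wt and on in both PTX libraries were ZNF177, ZNF846, ZNF491, ZNF235, ZNF665, ZNF470, ZNF460 and ZNF135. Their levels stayed low, between 0.529 and 1.30 FPKM in the PTX libraries. ZNF846 had 0.284, 0.936, 0.0749 and 0.666 FPKM and ZNF665 had 0.310, 1.02, 0.444 and 0.803 FPKM. ZNF135 was listed at 0 in SW1736 wt and had 1.10, 0.446 and 0.550 FPKM in the other 3 libraries. ZNF177 was listed at 0 in SW1736 wt and had 1.30, 0.423 and 0.581 FPKM in the others, but 94.4% of the 75-base stretches of its transcript also occur in another gene. The readthrough gene ZNF559-ZNF177, which overlaps it on the same strand, had 0.563, 0.695, 0.132 and 0.373 FPKM. How reads were divided between ZNF177 and ZNF559-ZNF177 is uncertain. The 5 genes that were on in both wt and off in both PTX libraries were ZNF878 and ZNF442 in cluster C and ZNF738, ZNF724P and ZNF726 in cluster D. ZNF878 had 1.10, 0.278, 0.661 and 0.249 FPKM and ZNF726 had 1.09, 0.269, 0.834 and 0.354 FPKM. Of these 13 genes, only ZNF724P passed the limit on the size of the change, given next, in the same direction in both lines.

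The change of a gene was log2((a + 0.1)/(b + 0.1)) for FPKM values a and b, so that changes of low genes come out too small. Genes that were on in either library were compared, and one was called higher or lower beyond 1.5 in either direction. This is a limit on size and not a test. Between SW1736-PTX and SW1736 wt, 222 zinc finger genes were compared, 20 were called higher (9.01%) and 19 lower (8.56%), against 15.7% and 10.2% of all 14202 genes compared. Between 8505C-PTX and 8505C wt, 218 were compared, 18 were called higher (8.26%) and 3 lower (1.38%), against 15% and 5.89% of all 13794 genes. The median change of the zinc finger genes was -0.10 in SW1736 (all genes 0.01) and 0.37 in 8505C (all genes 0.11). In 8505C, 152 of the 218 changes were above 0, and in SW1736, 103 of 222 were. Among the ZNF genes on other chromosomes, 9.52% were called higher and 8.66% lower in SW1736 and 10.1% and 1.76% in 8505C, and no difference between these shares was tested.

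With 8505C wt as the reference of SW1736-PTX, 213 genes were compared, 14 were called higher and 4 lower, against 15.1% and 5.23% of all genes, and the median change became 0.38. Between the 2 wt libraries, 15 of 215 genes were called higher in 8505C wt and 14 lower (all genes 7.73% and 9.92%). Between the 2 PTX libraries, 8 of 215 were called higher in 8505C-PTX and 1 lower (all genes 3.7% and 4.09%). SW1736-PTX thus had more called genes against its own wt library, 39, than against 8505C wt, 18.

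**Figure D3:**
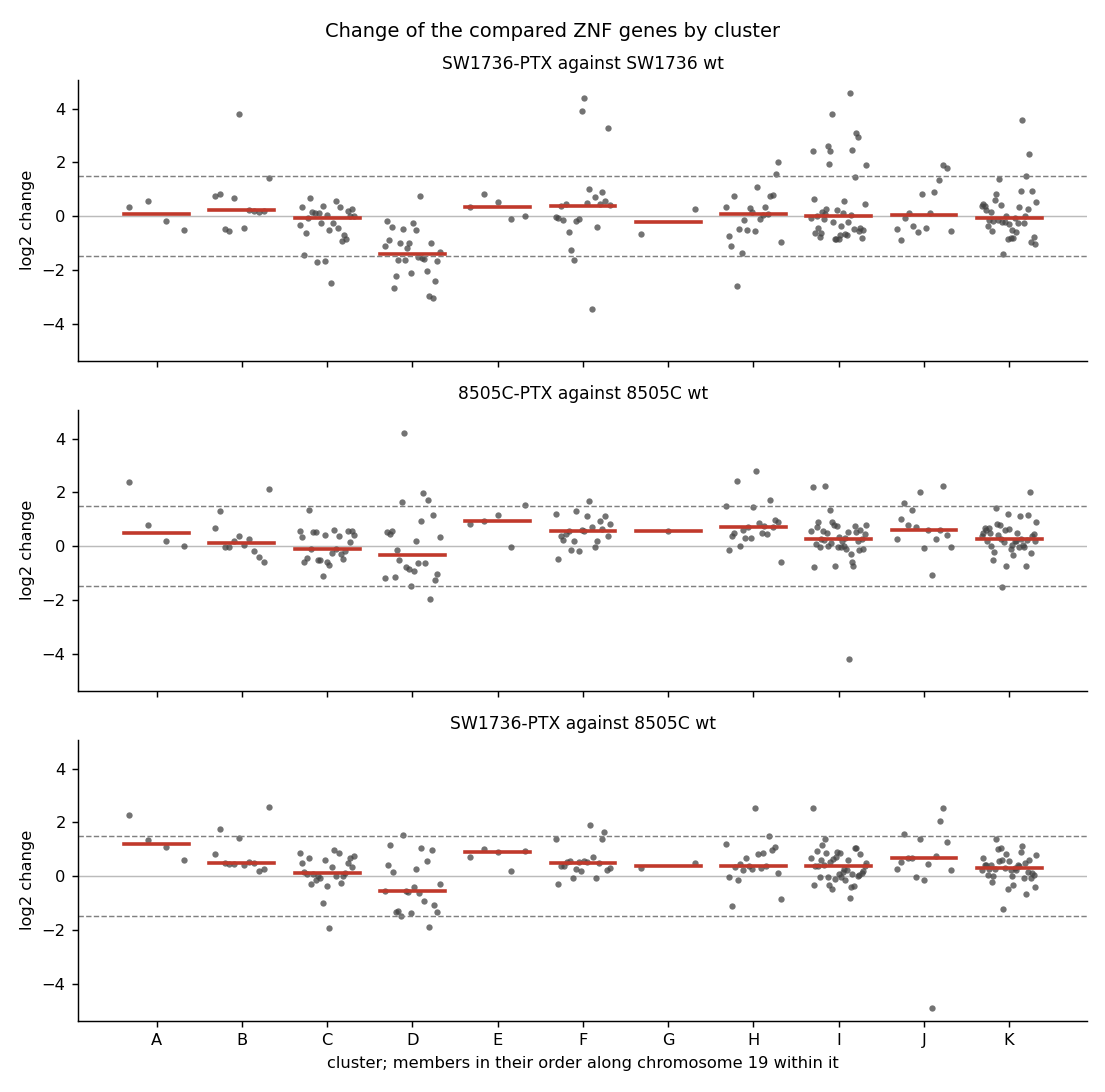
Log2 change of each compared gene (points, in chromosomal order within clusters A to K) with the median of the cluster (red bar) and the limits of 1.5 in either direction (dashed), for both PTX lines against their own wt library and for SW1736-PTX against 8505C wt. Changes from or to a level listed at 0 depend on the pseudocount. In the upper panel the median of cluster D was -1.43 and the medians of the other clusters were between -0.21 and 0.39.

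Cluster D held most of the genes that were lower in SW1736-PTX than in SW1736 wt. Of its 26 compared genes, 25 were below 0, and the median change was -1.43. In the cluster 13 genes were called lower (50%, all genes 10.2%) and 0 higher (all genes 15.7%). Of the 196 compared genes outside cluster D 6 were called lower (3.06%). All 26 compared genes of cluster D were on in SW1736 wt, and 8 of them were off in SW1736-PTX. Those 8 passed the limit for comparison only through SW1736 wt, so the direction of their change was fixed by that limit. With 0.5 FPKM required in both libraries, 6 of the 13 were called, and the others of the 13 were off in SW1736-PTX. The 13 genes were ZNF93, ZNF682, ZNF90, ZNF626, ZNF714, ZNF738, ZNF429, ZNF100, ZNF43, ZNF724P, ZNF675, ZNF681 and ZNF726, spread over the cluster on both sides of the silent block. Summed over the cluster, its level was 175 TPM in SW1736 wt, 64.6 in SW1736-PTX, 88.0 in 8505C wt and 85.4 in 8505C-PTX, where TPM is a level per gene length scaled to the same total in each library. SW1736 wt was thus the high library, and SW1736-PTX the lowest. In 8505C, 4 of 24 compared genes of the cluster were called higher (16.7%, all genes 15%) and 1 lower (4.17%, all genes 5.89%). These shares were near those over all genes. There 11 changes were above 0 and 13 below, with a median of -0.32. Against 8505C wt, SW1736-PTX had 1 gene of the cluster called higher and 2 lower (ZNF486 and ZNF724P) of 22, with a median of -0.55. These are 4.55% and 9.09%, against 15.1% and 5.23% of all genes. In each of the 3 comparisons, which share SW1736-PTX and 8505C wt, the median of cluster D was the lowest of the 11 clusters. Between the wt libraries (8505C minus SW1736) its median was -0.85, above that of cluster A (-1.18). Between the PTX libraries it was 0.19. The cluster also held 3 compared genes that are not zinc finger genes by the rule, of which IPO5P1 and LINC01224 were called lower in SW1736-PTX.

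ZNF675 had the highest level of the cluster in SW1736 wt, with 7.57, 0.825, 1.87 and 0.730 FPKM, with a change of -3.05 in SW1736 and of -1.09 with 8505C wt as the reference. ZNF93, whose protein is known to repress L1 retrotransposons, had 4.70, 0.655, 1.82 and 0.766 FPKM, with changes of -2.67 in SW1736, -1.15 in 8505C and -1.35 between SW1736-PTX and 8505C wt. Both wt libraries were above both PTX libraries for these genes. ZNF714, chosen after its values were seen, had 7.05, 1.53, 4.08 and 1.40 FPKM, with changes of -2.13, -1.47 and -1.36 in the same 3 comparisons. ZNF724P had 4.15, 0.444, 1.91 and 0.408 FPKM and changes of -2.96 and -1.98, and it was the only gene called lower in both lines, of 214 compared in both (all genes 2.41%). Of its 75-base stretches, 51.9% also occur in another gene, so part of its reads may be shared. ZNF91, which is known to repress SVA elements, had 3.53, 1.73, 0.842 and 1.99 FPKM and changes of -0.99 and 1.15, of opposite sign and below the limit. ZNF649, the third listed gene known to bind retroelements, lies in cluster I and had 1.31, 2.09, 2.62 and 1.49 FPKM with no call.

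The promoters of cluster D resembled each other more than those of the other clusters. RefSeq promoter windows (250 bases before to 50 after the start, GRCh38.p14) were assigned to 214 of the 253 genes. The window assigned to ZNF233 in cluster H was that of ZNF224, so this promoter is counted for both genes. Over the 250 bases before the start, the median identity of 2 promoters of cluster D, in a pairwise alignment, was 79.2%, against medians of 58.8% to 63.6% in the other clusters and 58.8% between genes of different clusters. A 12-base word, CTGTCACTCAGG, chosen after the fact as the one held by most promoters of cluster D, occurred in 18 of its 27 promoters, in each case on the strand of the gene. It began between 69 and 130 bases before the start. On either strand it occurred in 5 of 24 promoters of cluster C, in 0 of the other clusters and in 0.198% of all 16199 promoters. Parts of 3 promoters are shown, from 250 to 71 bases before the start, for genes of cluster D with high levels in SW1736 wt that were called lower in SW1736-PTX, with the word in capitals, ZNF675 at chr19:23687283-23687462 on the minus strand, ZNF93 at chr19:19900696-19900875 and ZNF714 at chr19:21081953-21082132, both on the plus strand.
ZNF675: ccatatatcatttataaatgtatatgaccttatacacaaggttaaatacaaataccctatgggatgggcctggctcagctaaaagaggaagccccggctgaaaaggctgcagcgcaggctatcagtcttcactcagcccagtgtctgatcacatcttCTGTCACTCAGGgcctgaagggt
ZNF93: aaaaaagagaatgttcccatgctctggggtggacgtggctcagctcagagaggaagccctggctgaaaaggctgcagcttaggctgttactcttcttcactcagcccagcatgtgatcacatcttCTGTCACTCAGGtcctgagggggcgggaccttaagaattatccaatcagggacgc
ZNF714: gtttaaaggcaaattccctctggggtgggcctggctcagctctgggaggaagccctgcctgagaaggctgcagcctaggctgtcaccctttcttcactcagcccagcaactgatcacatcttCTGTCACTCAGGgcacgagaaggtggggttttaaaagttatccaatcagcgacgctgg

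The word did not separate the genes that were lower. Of the 14 compared genes of cluster D with it, 8 were called lower in SW1736-PTX, and of the 9 without it 4 were. The 4 genes of the silent block that had a promoter entry, ZNF208, ZNF257, ZNF492 and ZNF730, all held the word and were off in all 4 libraries. A match describes letters only and no factor is drawn from it. The promoters of cluster D were also poor in CpG, the dinucleotide at which DNA is methylated, with a median of 10 per 300 bases (8 to 18), against 20 over all 214 genes and 25 in cluster I. Genes called lower in SW1736-PTX had a median of 10 and genes called higher a median of 23. These medians follow the clusters the genes lie in and were not compared within clusters.

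**Figure D4:**
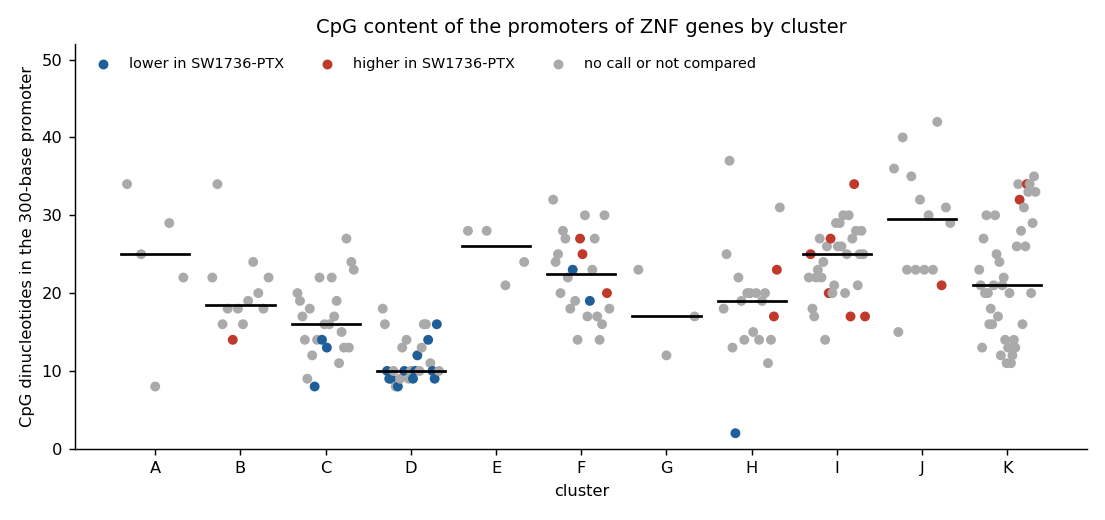
Number of CpG dinucleotides in the 300-base RefSeq promoter window of each gene (points) by cluster, with the cluster median (black bar), coloured by the call in SW1736-PTX against SW1736 wt. Cluster D had the lowest median, 10, and held most of the genes called lower, while the genes called higher lay in clusters with medians between 18.5 and 29.5.

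Genes that were higher in SW1736-PTX than in SW1736 wt were most numerous in cluster I, on the long arm, which held 10 of the 20. These were ZNF577, ZNF480, ZNF610, ZNF880, ZNF528, ZNF702P, ZNF415, ZNF818P, ZNF677 and ZNF331. Of the 41 compared genes of the cluster, 24.4% were called higher (all genes 15.7%) and 0 lower (all genes 10.2%). All of the 10 except ZNF577 and ZNF331 were off in SW1736 wt. Those genes passed the limit for comparison only through SW1736-PTX, so the direction of their change was fixed by that limit. With 0.5 FPKM required in both libraries, 2 genes of the cluster were called higher. Over the whole cluster 21 changes were above 0 and 20 below, with a median of 0.0017 and quartiles of -0.56 and 1.45. The median level of the 10 genes called higher was 0.158, 1.97, 1.57 and 1.81 FPKM in the usual order. That of all 43 genes of the cluster was 2.00, 2.09, 1.55 and 1.96 FPKM. With 8505C wt as the reference, 1 gene of the cluster, ZNF577, was called higher in SW1736-PTX and 0 lower, of 41 compared (all genes 15.1% and 5.23%). Between the PTX libraries the 10 differed by -3.37 (ZNF702P) to 1.68 (ZNF610).

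Within cluster I, 4 neighbours with no other ZNF gene between them, ZNF480, ZNF610, ZNF880 and ZNF528 (chr19:52297169-52418404, 121 kb), were all off in SW1736 wt only. The first 3 are named here after their values were seen. ZNF480 had 0.462, 3.37, 3.45 and 3.44 FPKM. ZNF610 had 0.0655, 0.542, 0.711 and 1.96 FPKM, and ZNF880 had 0.337, 2.23, 1.53 and 1.66 FPKM. ZNF528 was listed at 0 in SW1736 wt and had 1.28, 1.82 and 3.44 FPKM in the other 3 libraries. The antisense gene ZNF528-AS1, which begins within the promoter of ZNF528, was also called higher in SW1736-PTX than in SW1736 wt. The next 2 genes along the chromosome, ZNF534 and ZNF578, were off in all 4 libraries. Further along, the neighbours ZNF818P and ZNF677 were also off in SW1736 wt only. ZNF677, known as a gene silenced by promoter methylation in carcinomas, was listed at 0 in SW1736 wt and had 0.664, 0.659 and 0.759 FPKM in the others.

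The 4 promoter entries among the 7 genes of cluster I that were off in SW1736 wt only had a median of 23.5 CpG per 300 bases, against 25 for the genes of the cluster that were on in all 4 libraries and 21 for all 16199 promoters. Parts of 3 are shown for genes that were off in SW1736 wt only, from 250 to 71 bases before the start, with each CpG in capitals. ZNF528 (chr19:52397599-52397778, plus strand) and ZNF880 (chr19:52369673-52369852, plus strand) belong to the 4 neighbours, and ZNF677 lies at chr19:53254894-53255073 on the minus strand. The stretches hold 12, 8 and 18 CpG, against 2, 3 and 3 in those of ZNF675, ZNF93 and ZNF714 of cluster D. The medians of the whole clusters I and D were 25 and 10 per 300 bases. ZNF415, the entry not shown, had 17 per 300 bases, against 27, 20 and 34 for ZNF528, ZNF880 and ZNF677. DNA methylation was not measured.
ZNF528: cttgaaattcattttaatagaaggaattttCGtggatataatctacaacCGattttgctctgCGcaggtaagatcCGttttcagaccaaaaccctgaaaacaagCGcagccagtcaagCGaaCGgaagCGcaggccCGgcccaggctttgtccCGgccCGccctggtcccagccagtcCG
ZNF880: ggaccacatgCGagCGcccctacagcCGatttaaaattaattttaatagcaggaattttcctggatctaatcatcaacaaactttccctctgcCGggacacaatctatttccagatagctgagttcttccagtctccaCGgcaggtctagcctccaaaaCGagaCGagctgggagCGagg
ZNF677: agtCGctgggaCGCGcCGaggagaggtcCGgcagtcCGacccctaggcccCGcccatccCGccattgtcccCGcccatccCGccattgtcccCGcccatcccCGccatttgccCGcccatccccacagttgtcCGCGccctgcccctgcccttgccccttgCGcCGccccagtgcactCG

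**Figure D5:**
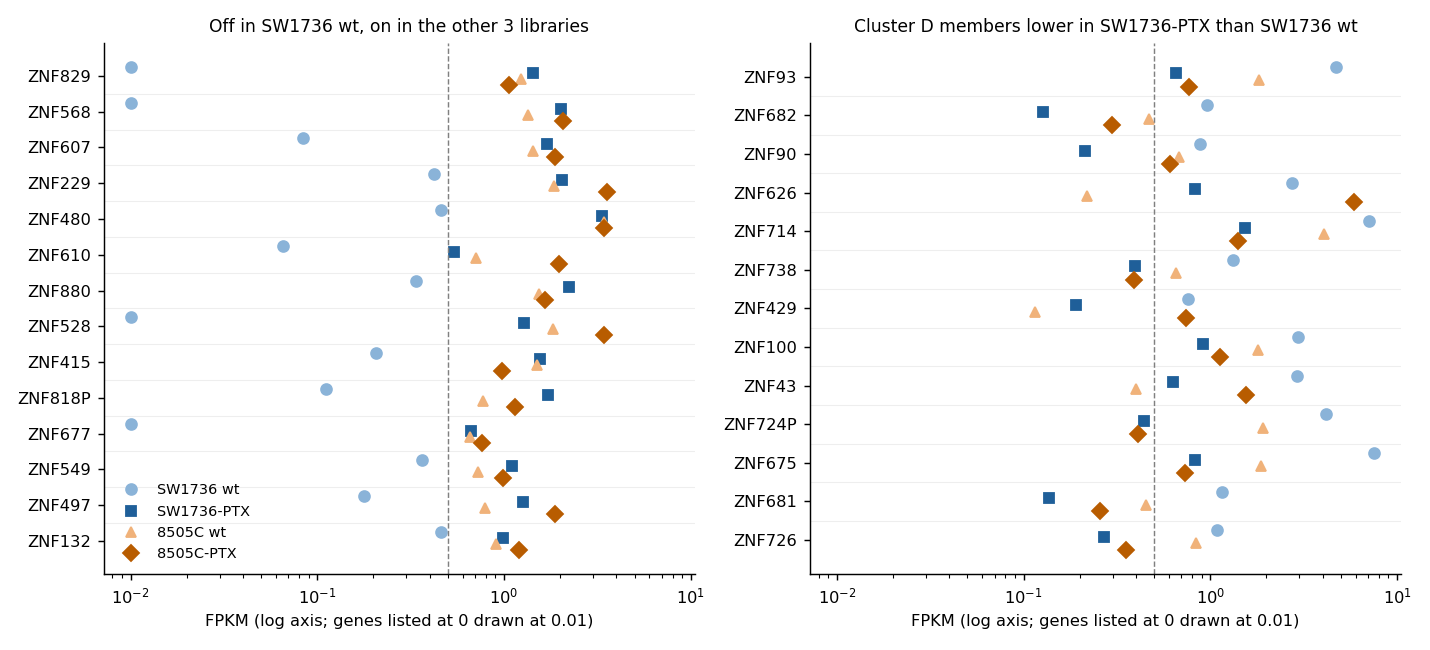
FPKM (logarithmic axis, genes listed at 0 drawn at 0.01, limit of 0.5 dashed) in the 4 libraries (symbols) of the 14 genes that were off in SW1736 wt only, and of the 13 genes of cluster D that were called lower in SW1736-PTX than in SW1736 wt. The position of SW1736 wt, lowest on the left and above SW1736-PTX on the right, follows from how both sets were chosen, and the plot shows where 8505C wt and 8505C-PTX lie.

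Cluster F held a similar pair. ZNF829 on the minus strand and ZNF568 on the plus strand start 38 bases apart, head to head, so they share 1 promoter region. ZNF829 was listed at 0 in SW1736 wt and had 1.42, 1.23 and 1.07 FPKM in the other 3 libraries, and ZNF568, whose mouse counterpart is known to silence a placental transcript of Igf2, was listed at 0 in SW1736 wt and had 2.02, 1.34 and 2.07 FPKM. ZNF607, in the same cluster and named after its values were seen, had 0.0838, 1.70, 1.42 and 1.86 FPKM. Of the 4 head-to-head pairs with starts at most 1 kb apart, 3 had the same state in all 4 libraries. In the fourth, ZNF529 was on and ZNF382 off in all 4 libraries, with starts 29 bases apart. In the small clusters E and G, the genes with the largest summed change were ZNF181, which had 1.61, 2.97, 1.43 and 2.82 FPKM, and ZNF546, which was off in all 4 libraries at 0.0755, 0.414, 0.208 and 0.433 FPKM. Neither had a call, and both had their higher levels in the PTX libraries.

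ZNF331, at the end of cluster I, is known from rearrangements in follicular thyroid adenomas. It had 1.52, 5.95, 4.17 and 7.27 FPKM, a change of 1.90 in SW1736 and of 0.79 in 8505C. Both PTX libraries lay above both wt libraries. Among the 8 listed genes known to be methylated in carcinomas, 4 were compared in SW1736, of which ZNF331, ZNF677 and ZNF177 were called higher (all genes 15.7%), and 5 in 8505C, of which 0 had a call. ZNF677 and ZNF177 passed the limit for comparison only through SW1736-PTX, where they were high, so their call was fixed by that limit. ZNF132 had 0.462, 0.983, 0.907 and 1.20 FPKM and ZNF671 had 0.431, 0.283, 0.384 and 1.00 FPKM.

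Only 2 genes were called higher in both lines, of 214 compared in both (all genes 7.37%). ZNF577 in cluster I had 1.75, 9.90, 1.61 and 7.85 FPKM, with changes of 2.43 and 2.22, and a change of 2.55 between SW1736-PTX and 8505C wt. ZNF471 in cluster J had 0.603, 2.54, 0.358 and 2.08 FPKM, with changes of 1.91 and 2.25, and of 2.53 with 8505C wt as the reference. On the log2 scale the 2 wt libraries differed by -0.11 for ZNF577 and -0.62 for ZNF471 (8505C minus SW1736) and the 2 PTX libraries by -0.33 and -0.28, so for both genes the difference between wt and PTX was larger than that between the lines. ZNF470, the neighbour of ZNF471, had 0.227, 1.05, 0.374 and 0.529 FPKM and was called higher in SW1736 only.

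In 8505C the genes called higher were dispersed. The 18 lay in 9 of the 11 clusters and among the scattered genes, with 4 in cluster D and 3 each in clusters H and J. ZNF224 in cluster H, known as a repressor of the aldolase A gene, had 1.65, 3.59, 0.534 and 4.30 FPKM and a change of 2.80. ZNF554 in cluster A had 0.886, 1.15, 0.155 and 1.23 FPKM and a change of 2.38. For both genes 8505C wt was the low library. On the log2 scale SW1736 wt lay nearer to the PTX libraries than to 8505C wt, while in FPKM this held for ZNF554 only. Over the 18 genes the median level was 1.14, 0.881, 0.271 and 1.48 FPKM in the usual order. The low median in 8505C wt against 8505C-PTX follows from how the 18 were chosen. With 0.5 FPKM required in both 8505C libraries, 5 genes were called higher. The others of the 18 were off in 8505C wt and passed the limit for comparison only through 8505C-PTX. The direction of their change was fixed by that limit. ZNF530 in cluster K, which had 2.54, 0.890, 2.21 and 0.705 FPKM, was 1 of the 3 called lower, with a change of -1.52 in 8505C and of -1.42, without a call, in SW1736.

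Over the 214 genes compared in both, the correlation of the changes was 0.155 and 136 (63.6%) had the same direction, against 0.498 and 70.3% over all 13304 genes compared in both. The points share their libraries, and no test was made. Among them, 6 genes were called in opposite directions. ZNF702P, a processed pseudogene in cluster I, had 0.111, 5.02, 8.94 and 0.397 FPKM, with changes of 4.60 in SW1736 and -4.19 in 8505C. ZNF626 in cluster D had 2.74, 0.827, 0.220 and 5.90 FPKM, with changes of -1.62 and 4.23. ZNF404 in cluster H had 0.728, 0.0375, 0.183 and 1.41 FPKM, and ZNF585B in cluster F had 1.60, 0.0553, 0.226 and 0.935 FPKM. ZNF43 and ZNF429 in cluster D were likewise low in SW1736-PTX and 8505C wt and higher in the other 2 libraries. Of the 6, the 5 other than ZNF702P were called lower in SW1736 and higher in 8505C. Their low levels in SW1736-PTX and 8505C wt, each within its line, thus follow from how they were chosen. ZNF702P had the reverse calls, and its high levels in that pair of libraries follow likewise.

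Annotation limited some of these values. For 28 of the 253 genes more than 20% of the 75-base stretches of the transcript also occur in another gene, and 11 of the 28 lay in cluster C. ZNF20 in cluster C had 2.52, 0.370, 1.67 and 0.986 FPKM and was called lower in SW1736-PTX, but 73.0% of its stretches also occur in another gene. Which gene holds them was not recorded. The readthrough gene ZNF625-ZNF20 had 0.0634, 1.22, 0.0288 and 0 FPKM and was high in SW1736-PTX, where ZNF20 was low. A shift of reads between the 2 names cannot be told apart from a change of ZNF20. ZNF585B shares 21.1% with other genes. Another 12 genes overlapped a gene on the same strand and 19 a gene on the opposite strand, and whether counting used strand is not given in the sources used here.

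The partners through which KRAB proteins act were expressed in all 4 libraries. TRIM28 had 230, 124, 165 and 129 FPKM and SETDB1 had 6.10, 7.29, 6.83 and 10.0 FPKM. Of the 24 listed partners and enzymes of DNA and histone methylation, 23 were compared in each line. In SW1736-PTX 0 were called higher and CBX1, an HP1 protein, UHRF1, which brings DNMT1 to replicating DNA, and TRIM24 were called lower, 3 of 23 (all genes 10.2%). CBX1 had 79.0, 21.9, 58.0 and 62.0 FPKM, and TRIM24 had 14.7, 3.73, 6.64 and 4.17 FPKM. In 8505C-PTX 0 were called higher and UHRF1 and DNMT1, the maintenance DNA methyltransferase, lower, 2 of 23 (all genes 5.89%). UHRF1 had 77.5, 13.4, 58.2 and 6.43 FPKM and was the only one of the list called lower in both lines, by -2.52 and -3.16. DNMT1 had 87.5, 35.5, 55.3 and 17.3 FPKM, with changes of -1.30 and -1.67. Both PTX libraries were below both wt libraries for UHRF1, DNMT1, TRIM28, CBX3, TRIM24, MPHOSPH8, PPHLN1, CHD4 and TRIM33. They were above both for SETDB1, CBX5, MORC2, DNMT3A and CHD3, none with a call. DNMT3A, a de novo DNA methyltransferase, had 1.98, 5.46, 2.81 and 5.80 FPKM. The chromatin remodeller CHD3 had 22.5, 58.1, 46.4 and 65.3 FPKM. The rest of the list had neither ordering. The median change of the list was -0.32 in SW1736 and -0.09 in 8505C. In cultures measured in bulk, fewer cells of a kind and less RNA per cell cannot be told apart.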

How the data were processed

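RNA of 4 cultures was sequenced as single-end reads of 75 bp, with 1 library per condition, taken from the sample titles. Per the methods, the authors demultiplexed with bcl2fastq 2.20, trimmed with Cutadapt and ERNE, aligned to hg38 with STAR and quantified with StringTie. The annotation and the versions of STAR, ERNE and StringTie are not given in the sources used here. The deposited coverage signal is the mean read depth per base, the FPKM deposited by the authors is a level per gene length and library depth, and the deposited TPM is the same quantity scaled to 1000000 per library. The tables hold no counts.

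FPKM rows of one name were summed. The pseudocount was 0.1, the on limit 0.5, the call limit 1.5 on the log2 scale and the cluster gap 500 kb. The code that makes the calls was tested on simulated data, which bears on the code and not on the replication of a call. KRAB and finger matches were counted in the translated GENCODE 44 coding sequences, and promoters were taken from RefSeq. Depth came from the ratio of coverage to FPKM, and 3 reads on the median transcript correspond to 0.0133 to 0.0177 FPKM, for counting error only. Genes named are those called or switched in the same or opposite directions in both lines, the 5 largest changes per line and direction, the 5 highest, the largest summed change per cluster and the listed genes, and others are marked. The members and lists were chosen with earlier results of these data known. Alternatives changed the limit, pseudocount, filter, unit, centring, rows, threshold, gap and the SW1736 reference. Python 3.11.15, NumPy 2.4.6 and pandas 2.3.3 were used.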

Additional observations from a re-analysis of the deposited data

Results flagged for a closer look

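6 genes were called in opposite directions in the 2 lines, and this difference between the lines was not tested, since each condition had 1 library. The log2 change in SW1736 and in 8505C was -1.62 and 4.23 for ZNF626, -1.56 and 1.96 for ZNF429, and -2.05 and 1.73 for ZNF43, all in cluster D. It was -3.45 and 1.67 for ZNF585B, -2.59 and 2.42 for ZNF404, and 4.60 and -4.19 for ZNF702P. With 8505C wt as the reference of SW1736-PTX, ZNF626 was called higher, by 1.53, ZNF43 and ZNF702P had no call, and ZNF429, ZNF585B and ZNF404 were not compared, since both libraries were at most 0.5 FPKM. The part of line identity was not tested.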

How the results depend on the processing

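Of 133 combinations of a result and an alternative, 81 kept their direction and stayed within 1.5 times of the count or 0.1 of the median. The 4 counts of genes that were on and the number of clusters changed by less than that under every alternative tried. Switches and the size calls rest on low levels, and 1 library per condition gives no replicate to leave out. A fit of PTX against wt over both lines with line as a block was not run. With a limit of 0.1 FPKM, 13 genes were switched on and 3 off in SW1736-PTX and 9 on and 1 off in 8505C-PTX. With 0.5 TPM the counts were 14, 7, 14 and 1, with the wider limits, added after the data were seen, 11, 2, 3 and 0, and with 1 FPKM 11 were switched off in 8505C-PTX. With a pseudocount of 1, 4 genes were called higher and 4 lower in SW1736, 5 and 1 in 8505C, 1 higher and 0 lower in both lines, 4 lower in cluster D and 3 higher in cluster I, and the median in 8505C was 0.22. With 0.5 FPKM required in both libraries the counts were 4, 7, 5, 1, 1, 0, 6 and 2 in the same order. With a pseudocount of 0.01, 3 were lower in both lines. In TPM 4 were higher and 3 lower in both lines. Centring gave 2 lower in both lines and a median of 0.26 in 8505C. With a threshold of 1 on the log2 scale, 31 were lower in SW1736, 36 higher and 10 lower in 8505C, and 7 higher and 8 lower in both. With a threshold of 2, 10 were lower in SW1736, 11 higher and 1 lower in 8505C, 1 higher and 0 lower in both, and 7 lower in cluster D. With 8505C wt as the reference of SW1736-PTX, 8 were switched off (added after the data were seen), 4 were called lower, 9 were higher in both comparisons, which then share that control, 2 were lower in cluster D and 1 higher in cluster I, and the median turned from -0.10 to 0.38. The cause was not tested.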
